A study of Mus musculus with 11 samples.

Results

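The 8 genes Sox10, Ngfr, Gfap, S100b, Cdh19, Gap43, Ncam1 and Erbb3 mark Schwann cells, the glia of peripheral nerves, or the nerve fibres they accompany. They were chosen by name out of the 19329 gene IDs measured in islet RNA, and all 8 had a row in the deposited table. The question asked of them was whether the lower level of Ngfr in PDX1-P33T islets went together with lower levels of the other Schwann cell markers. Bulk RNA-sequencing had been done on whole pancreatic islets, isolated and briefly cultured, from untreated 14-week-old male mice on a C57BL/6N background kept on chow. PDX1-P33T mice were homozygous for a proline-to-threonine exchange in PDX1 made by CRISPR-Cas9 in one-cell embryos and carried in every cell. Wild-type mice, described as littermates, were the controls. The study also states that its cohorts came from homozygous intercrosses, so whether the genotypes shared litters is not clear. There were 6 wild-type and 5 PDX1-P33T libraries, and whether a library came from 1 mouse or a pool of 6 is not clear from the study's wording, so the p-values below measure the spread between libraries.

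Schwann cells wrap the axons of autonomic and sensory nerves, and in the mouse pancreas they also form a thin sheath around each islet. Sox10 is the transcription factor that sets their lineage, Erbb3 is the receptor through which axonal neuregulin keeps them alive, and Ngfr is the low-affinity neurotrophin receptor, abundant in immature and non-myelinating Schwann cells and in cells that have lost contact with an axon. Egr2 and Prx belong to the myelinating programme, while Gfap, Cdh19 and S100b are commonly used markers of the lineage. Gap43 and Ncam1 are less specific, since axons carry both and islet endocrine cells carry Ncam1.

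Levels are given as FPKM, fragments scaled to gene length and sequencing depth, which can be set side by side between genes. The wild-type values of most genes stood on the rows of other genes in the deposited table. They were used only where the row could be recognised, either by the read counts in the part of the study's gene table used here or by the gene length and level recovered from the FPKM steps. This gave wild-type values for 5 of the 8 members. Ngfr and Cdh19 were recognised by their listed reads, and Ncam1 and Erbb3 by length and level. Sox10 was recognised only under a wider version of the length and level rule that was added after the data had been seen, with the next candidate gene more than 10-fold away in level. Gap43 and S100b each had more than 1 candidate wild-type row and stayed without a wild-type value. Gfap was listed at 0 in all 5 PDX1-P33T libraries, and the table listed at 0 every gene without a value in at least 4 of the 5, so this says no more than that Gfap missed that limit. The libraries held between 22849672 and 34866763 reads on the deposited rows in PDX1-P33T and at least 17416516 in wild-type, where part of the rows were missing.

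Ngfr lies on mouse chromosome 11 on the reverse strand. The sequence below is shown because Ngfr carried the clearest difference, and it covers the bases from 250 to 51 before its start (RefSeq, GRCm38.p6, chr11:95587749-95587948, read on the reverse strand). Capitals mark GGGCGG, the GC box, on either strand.

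Ngfr upstream: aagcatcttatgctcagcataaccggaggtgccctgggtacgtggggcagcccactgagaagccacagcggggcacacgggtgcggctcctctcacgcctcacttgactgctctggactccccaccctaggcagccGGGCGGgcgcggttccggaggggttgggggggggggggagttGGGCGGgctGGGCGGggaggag

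The stretch held 3 GC boxes and was 70.0% G or C, against a median of 51.5% over the same stretch of 32851 mouse promoters. A GC box was found in 24.6% of those promoters. Neither TAATTA, the core bound by many homeodomain factors, nor ACAAAG, a core bound by SOX factors, was found in the Ngfr stretch, and these stood in 4.19% and 13.6% of all promoters on either strand. A match in letters is a description and not a binding site, and no binding was measured.

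In PDX1-P33T islets the 8 genes spanned more than 100-fold in level. Ncam1, a cell adhesion molecule, was the highest at 7.83 ± 2.05 FPKM (SD, n = 5), above 77.6% of the genes detected there. Gap43, a growth cone protein of extending axons, followed at 4.74 ± 0.67 FPKM. Ncam1 exceeded Gap43 in 5 of 5 libraries although their ranges overlapped.

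The genes tied more closely to Schwann cells were all low. Ngfr stood at 0.443 ± 0.196 FPKM and Erbb3 at 0.398 ± 0.109, and these neighbours did not differ beyond their spread, since Ngfr was the higher in 3 of 5 libraries. Sox10 lay at 0.208 ± 0.098 FPKM, above 21.2% of the detected genes. S100b, a calcium-binding protein of glia, reached 0.0998 ± 0.088 FPKM from 20 reads in all 5 libraries together, and Cdh19, a cadherin of the Schwann cell lineage, 0.0449 ± 0.0379 FPKM from 26 reads. Each gene in the order Erbb3, Sox10, S100b, Cdh19 was above the next in 4 of 5 libraries, and each pair of neighbours overlapped in range. In wild-type the order of the 5 genes with values was Ncam1, Ngfr, Erbb3, Sox10 and Cdh19. There Ngfr was above Erbb3 in 6 of 6 libraries with no overlap, at 1.51 ± 1.07 against 0.530 ± 0.147 FPKM (SD, n = 6).

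**Figure D1:**
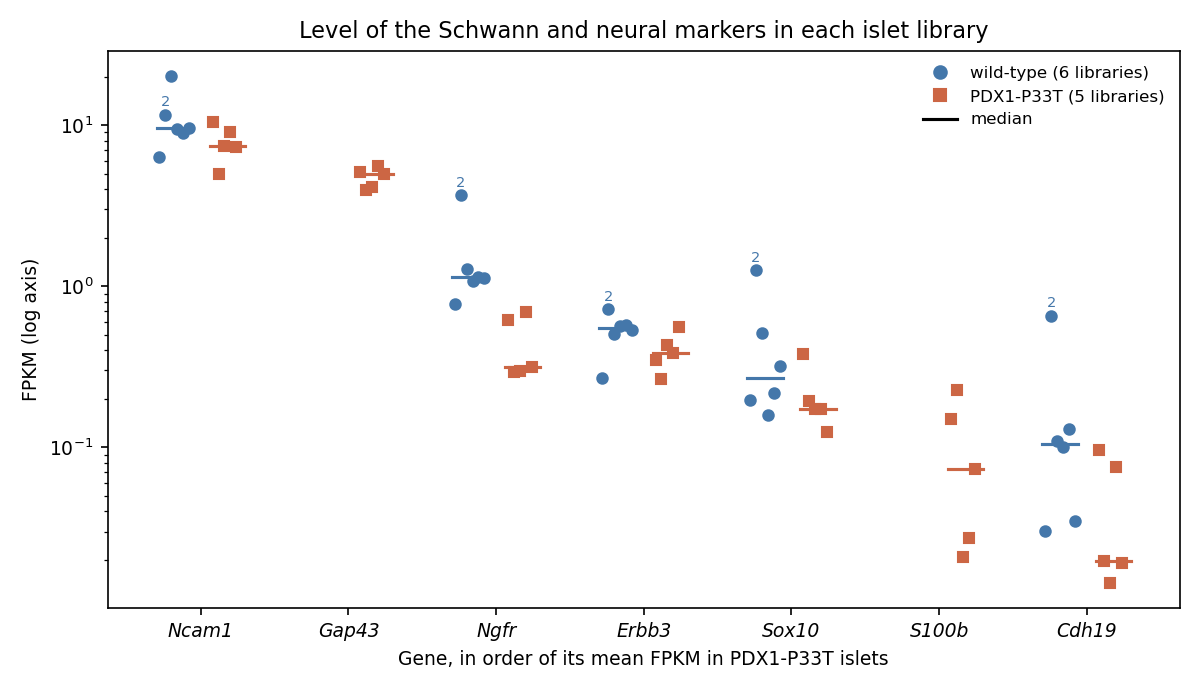
FPKM on a log axis of 7 of the 8 markers in each library, with wild-type as circles, PDX1-P33T as squares, the median of each group as a line and wild-type replicate 2 marked by its number. Ngfr is the gene whose groups do not overlap, with 0.772 FPKM as its lowest wild-type and 0.695 FPKM as its highest PDX1-P33T value, while Gap43 and S100b have no wild-type values and Gfap, listed at 0, is not drawn.

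Ngfr was the member that separated the genotypes. The wild-type libraries, in the order of replicates 1 to 6, had 0.772, 3.66, 1.28, 1.07, 1.15 and 1.12 FPKM, and the PDX1-P33T libraries 1 to 5 had 0.615, 0.293, 0.297, 0.695 and 0.315 FPKM. Every PDX1-P33T library lay below every wild-type library, and wild-type replicate 2 stood apart at 3.27 times the median of the other wild-type libraries. The 2 values nearest each other, 0.772 in wild-type replicate 1 and 0.695 in PDX1-P33T replicate 4, rested on 62 and 59 reads. On the log2(FPKM + 0.1) scale used for all tests, which understates changes of low genes, the difference of Ngfr was −1.45 (SE 0.34). The exact permutation test over libraries gave p = 0.0043, the smallest that 6 against 5 libraries allow, and limma p = 0.00099.

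After Benjamini-Hochberg adjustment over all 19329 gene IDs the limma p of Ngfr was 0.457, so Ngfr was not called here. That adjustment counted genes without a recognised wild-type row as unchanged. The study's own comparison used another test, DESeq2, so the missing call here is not a repeat of that test. Ngfr was among the genes the study names as lower, so its difference here is not independent evidence. Without wild-type replicate 2 the difference of Ngfr was −1.17 (SE 0.23), with an adjusted limma p of 0.282, and without wild-type replicates 2 and 3 it was −1.11. PDX1-P33T stayed at 0.411 times the mean of the other 5 wild-type libraries, which had 1.08 ± 0.19 FPKM. In bulk RNA, fewer cells of a type and less RNA per cell cannot be told apart.

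The remaining members with wild-type values had lower averages in PDX1-P33T, but none separated the genotypes. A call was set at a Benjamini-Hochberg adjusted limma p of 0.05 or less with at least a 1.5-fold change. It was reached by none of the 5 members, and by 0.0358% of 5590 genes toward lower and 0.0358% toward higher levels. With the limma p left unadjusted, 1 of the 5 members, Ngfr, was lower by these limits, beside 6.17% of the 5590 genes. The groups did not overlap for 1 of 5 members, again Ngfr, beside 2.18% of the 5590 genes with every PDX1-P33T value under every wild-type value. A negative log2 difference was found in 5 of 5 members and in 52.8% of the 5590 genes. Ngfr was known to be lower when the members were chosen, so these counts are no test of the members as a set. Among the 1673 genes recognised through the study's gene table, Ngfr and Cdh19 included, differences were more frequent, with 334 lower by the unadjusted limits and groups separated downward in 6.58%.

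Sox10 was highest in wild-type replicate 2. The wild-type libraries 1 to 6 had 0.197, 1.26, 0.509, 0.159, 0.216 and 0.320 FPKM and the PDX1-P33T libraries 0.378, 0.193, 0.173, 0.173 and 0.124 FPKM. Replicate 2 of the wild-type held 85 of the 193 wild-type reads, and PDX1-P33T replicate 1 exceeded 4 of the 6 wild-type libraries. The log2 difference was −0.60 (SE 0.39; exact permutation p = 0.182; adjusted limma p = 0.965). It was −0.28 without wild-type replicate 2 and −0.09 without replicates 2 and 3. Since Sox10, like Ncam1 and Erbb3, was placed by a level within 4-fold, a larger difference could not have been seen.

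Cdh19 had the fewest reads and the same high library. Wild-type libraries 1 to 6 had 0.0301, 0.655, 0.109, 0.101, 0.131 and 0.0351 FPKM, and PDX1-P33T libraries 1 to 5 had 0.0956, 0.0197, 0.0145, 0.0759 and 0.0190 FPKM. The groups overlapped, with 62 of 111 wild-type reads in replicate 2. The log2 difference was −0.67 (SE 0.39; exact permutation p = 0.113; adjusted limma p = 0.896) and −0.32 without that library. Its size follows the pseudocount, because most of its values are near or below 0.1 FPKM: it was −1.33 with a pseudocount of 0.01.

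Erbb3 and Ncam1 overlapped widely between genotypes. Erbb3 had 0.271, 0.722, 0.508, 0.569, 0.575 and 0.536 FPKM in wild-type and 0.346, 0.266, 0.433, 0.385 and 0.559 FPKM in PDX1-P33T, so that wild-type replicate 1 lay among the lowest of all 11 libraries. Its log2 difference was −0.33 (SE 0.21; exact permutation p = 0.165; adjusted limma p = 1.0). Ncam1 had 6.30, 11.6, 20.1, 9.46, 8.98 and 9.64 FPKM in wild-type and 10.4, 4.97, 7.44, 9.02 and 7.30 FPKM in PDX1-P33T. Here wild-type replicate 3 was the high library, and the log2 difference of −0.44 (SE 0.26; exact permutation p = 0.177; adjusted limma p = 0.923) came to −0.15 without wild-type replicates 2 and 3.

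**Figure D2:**
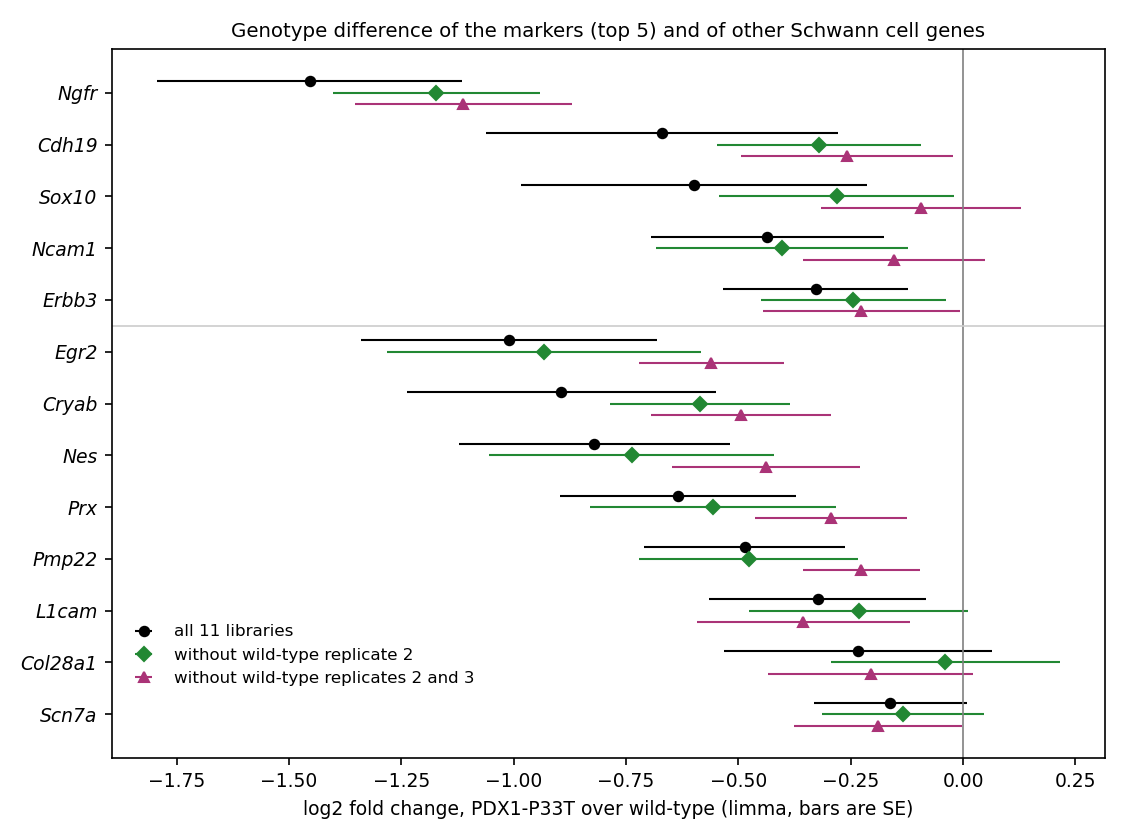
log2 fold change of PDX1-P33T over wild-type on the log2(FPKM + 0.1) scale, with limma standard errors, for the 5 markers with wild-type values (above the line) and 8 other Schwann cell genes, in all libraries (circles), without wild-type replicate 2 (diamonds) and without replicates 2 and 3 (triangles). Ngfr stays at −1.45, −1.17 and −1.11, while Sox10 moves from −0.60 to −0.28 and −0.09.

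Within each library, Ngfr was also set against the other members by the log2 ratio. These ratios are a description with no test, because Ngfr was known to be lower in these libraries, because Sox10, Erbb3 and Ncam1 were recognised by having like levels in both genotypes, and because the ratios were chosen after the members' values had been seen. The log2 ratio of Ngfr to Sox10 was 1.65 ± 0.36 in wild-type and 0.79 ± 0.45 in PDX1-P33T (SD, n = 6 and 5). That of Ngfr to Erbb3 was 1.21 ± 0.51 and 0.081 ± 0.628, and that of Ngfr to Ncam1 −2.88 ± 0.72 and −3.90 ± 0.31.

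For Cdh19, which was recognised by its listed reads as Ngfr was, the difference between genotypes in the log2 ratio depended on the pseudocount, with −0.78 at a pseudocount of 0.1 and −0.31 at 0.01. In plain FPKM the mean of Cdh19 in PDX1-P33T was 0.254 times that of wild-type, next to 0.294 times for Ngfr. The wild-type mean of Cdh19 leaned on replicate 2. With that library left out the ratios were 0.554 for Cdh19 and 0.411 for Ngfr.

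Library by library, Ngfr was compared with the other Schwann cell genes. Each gene was centred on its genotype mean, so that the genotype difference itself played no part, and compared with Ngfr over the 11 libraries. This was done for 14 genes, the 4 other members and 10 further Schwann cell genes. Cdh19 had a Pearson r of 0.94 (permutation p = 0.00244, adjusted over the 14 genes p = 0.0227) and a Spearman rho of 0.86 (permutation p = 0.0024, adjusted p = 0.0336). Sox10 had an r of 0.83 (permutation p = 0.0145, adjusted p = 0.0679) and a rho of 0.58 (permutation p = 0.064, adjusted p = 0.112). Among the 10 further genes only Cryab passed by r, at 0.90 (permutation p = 0.00325, adjusted p = 0.0227). By rho Cryab, Nes and Prx passed, at 0.75, 0.83 and 0.68 (adjusted permutation p = 0.0393 each). As a background, the median r over 5589 genes was 0.04, and 0.0358% of them reached the r of Cdh19 and 0.930% that of Sox10. The median r with Ngfr was 0.67 over the 4 other members and 0.48 over the 10 further Schwann cell genes. It was 0.73 over 7 fibroblast and mural cell genes and 0.71 over 4 immune cell genes. Over 5 endothelial and 9 neuron genes it was 0.29 and −0.05. These medians changed without wild-type replicate 2. They were then 0.60 for the members, 0.38 for the further Schwann cell genes and 0.43 for the fibroblast and mural genes. For the immune, endothelial and neuron genes they were 0.50, 0.73 and 0.11.

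Ncam1 had an r of 0.51 (permutation p = 0.171, adjusted p = 0.299) and a rho of 0.74 (permutation p = 0.0141, adjusted p = 0.0394), and Erbb3 an r of 0.46 (permutation p = 0.192, adjusted p = 0.299) and a rho of 0.29 (permutation p = 0.408, adjusted p = 0.408). Leaving out the 2 libraries farthest from the median of Ngfr, wild-type replicate 2 and PDX1-P33T replicate 4, gave r of 0.82 for Cdh19, 0.73 for Sox10, 0.75 for Ncam1 and 0.28 for Erbb3. None of the 14 genes passed the adjusted threshold then. Without wild-type replicate 2 alone, r was 0.81 for Cdh19 (exact permutation p = 0.0149, adjusted p = 0.076) and 0.50 for Sox10 (exact permutation p = 0.142, adjusted p = 0.285), and 25.4% of all genes reached the r of Sox10.

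Within the 6 wild-type libraries alone, the r of Cdh19 with Ngfr was 0.96 (exact permutation p = 0.0208, adjusted p = 0.0972) and that of Sox10 0.92 (exact permutation p = 0.0139, adjusted p = 0.0972). Spearman's rho was 0.89 for both (exact permutation p = 0.0333, adjusted p = 0.0933). Without wild-type replicates 1 and 2, the farthest from the median, r was 0.27 for Cdh19 and 0.90 for Sox10 over 4 libraries. Among the 5 PDX1-P33T libraries, replicates 4 and 1 had the most Ngfr, at 0.695 and 0.615 FPKM against at most 0.315 in the others. The same 2 libraries had the most Cdh19, at 0.0759 and 0.0956 FPKM against at most 0.0197, and the most Ncam1, at 9.02 and 10.4 FPKM against at most 7.44. Erbb3 and Sox10 did not follow that order. Erbb3 was highest in replicate 5, at 0.559 FPKM against 0.385 and 0.346 in replicates 4 and 1. Sox10 was highest in replicate 1, at 0.378 FPKM, but its 0.173 FPKM in replicate 4 was below the 0.193 FPKM of replicate 2.

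**Figure D3:**
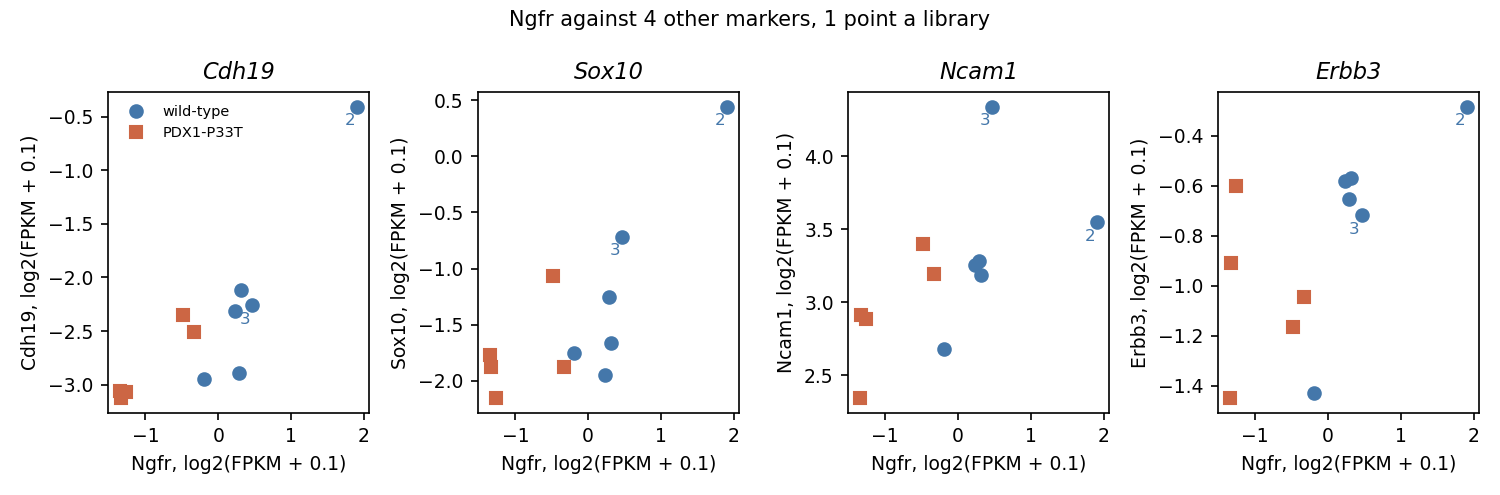
Each point is 1 library, with log2(FPKM + 0.1) of Ngfr on the horizontal axis and of Cdh19, Sox10, Ncam1 or Erbb3 on the vertical axis; wild-type circles (replicates 2 and 3 numbered) and PDX1-P33T squares. Wild-type replicate 2 lies far to the upper right for Cdh19 and Sox10, and the PDX1-P33T squares lie to the left of all wild-type circles in every panel because Ngfr is lower.

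Of the 10 genes with the profile closest to Ngfr over the 11 libraries, 1 was on the Schwann cell lists. Ranked were 4590 genes that averaged 20 or more reads a library. The 10 highest by centred r were Nr6a1, Abcc3, Sfrp1, Mob3c, AC114539.1, Cdk6, Cryab, Cep162, Gpc1 and Tmcc1, with r from 0.94 to 0.90. Cdh19 had too few reads to be ranked, and its r of 0.94 was about that of Nr6a1. Cryab, a small heat shock protein that Schwann cells make, ranked 7. Over the 6 wild-type libraries alone the 10 highest were Fam173b, Cryab, Mob3c, Cdk6, Col6a3, Sfrp1, Cx3cr1, AC114539.1, Nr6a1 and P2ry6, with r from 0.98 to 0.96. Each of these 10 genes had its highest wild-type value in replicate 2. That follows from how they were picked, since Ngfr itself was highest there. Replicate 2 was the highest wild-type library for 4 of the 5 members, Ngfr included, and for 14.7% of the 5590 genes. The 10 genes include Cx3cr1, a macrophage receptor, and Col6a3, a fibroblast collagen. These likenesses are descriptions over 11 or 6 points that share their libraries.

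Of 30 further Schwann cell genes, 29 were in the table and 10 had wild-type values. None was called by limma after adjustment. By the unadjusted limits 4 of the 10 were lower and none higher, beside 6.17% and 2.77% of the 5590 genes. The 4 genes were recognised through the study's gene table, where 334 of 1673 were lower by those limits. All 10 had a negative log2 difference, beside 52.8% of the 5590 genes and 58.7% of the 1673. Their median was −0.53 against −0.06 over the 5590 genes and −0.32 over the 1673. With all 11 libraries the shift was not particular to Schwann cell genes. Differences were negative in 7 of 7 fibroblast and mural genes (median −0.63), 5 of 5 endothelial genes (−0.67) and 4 of 4 immune genes (−0.58). They were negative in 4 of 9 islet endocrine genes (median 0.07). Without wild-type replicate 2, 3 of the 10 passed beside 4.38% of the 5590 genes. Without replicates 2 and 3 none of the 10 did, beside 2.0%, and the median over the 10 was −0.26. All 10 differences were still negative then, as were those of the 5 endothelial (median −0.41) and 4 immune genes (−0.21). Of the 7 fibroblast and mural genes 3 were still negative. Their median was −0.14 without replicate 2 and 0.06 without replicates 2 and 3.

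Egr2, the master regulator of myelination, had 0.164, 0.546, 1.22, 0.357, 0.291 and 0.265 FPKM in wild-type and 0.164, 0.136, 0.146, 0.131 and 0.152 FPKM in PDX1-P33T. The groups touched, with wild-type replicate 1 and PDX1-P33T replicate 1 at the same 0.164 FPKM, and the log2 difference was −1.01 (SE 0.33; exact permutation p = 0.00866; adjusted limma p = 0.499). Without wild-type replicates 2 and 3 it was −0.56. Egr2 is also induced as an immediate early gene in other cell types.

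Cryab had a log2 difference of −0.89 (exact permutation p = 0.026; adjusted limma p = 0.499), which was −0.59 without wild-type replicate 2, the library in which it stood at 13.9 FPKM against at most 4.90 in the other wild-type libraries. Nes, the intermediate filament nestin of progenitors, glia and vessels, had −0.82 (exact permutation p = 0.026; adjusted limma p = 0.499). Prx, a scaffold protein of the myelin sheath, had −0.63 (exact permutation p = 0.0216; adjusted limma p = 0.527). Nes and Prx were highest in wild-type replicate 3, and without replicates 2 and 3 their differences were −0.44 and −0.29.

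Pmp22, a myelin membrane protein, and L1cam, an adhesion molecule of axons and non-myelinating Schwann cells, were below a fold of 1.5. Their log2 differences were −0.49 (exact permutation p = 0.039) for Pmp22 and −0.32 (exact permutation p = 0.273) for L1cam. In PDX1-P33T alone, the myelin gene Mbp was measured at 10.5 ± 1.8 FPKM, without a wild-type value to set beside it.

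**Figure D4:**
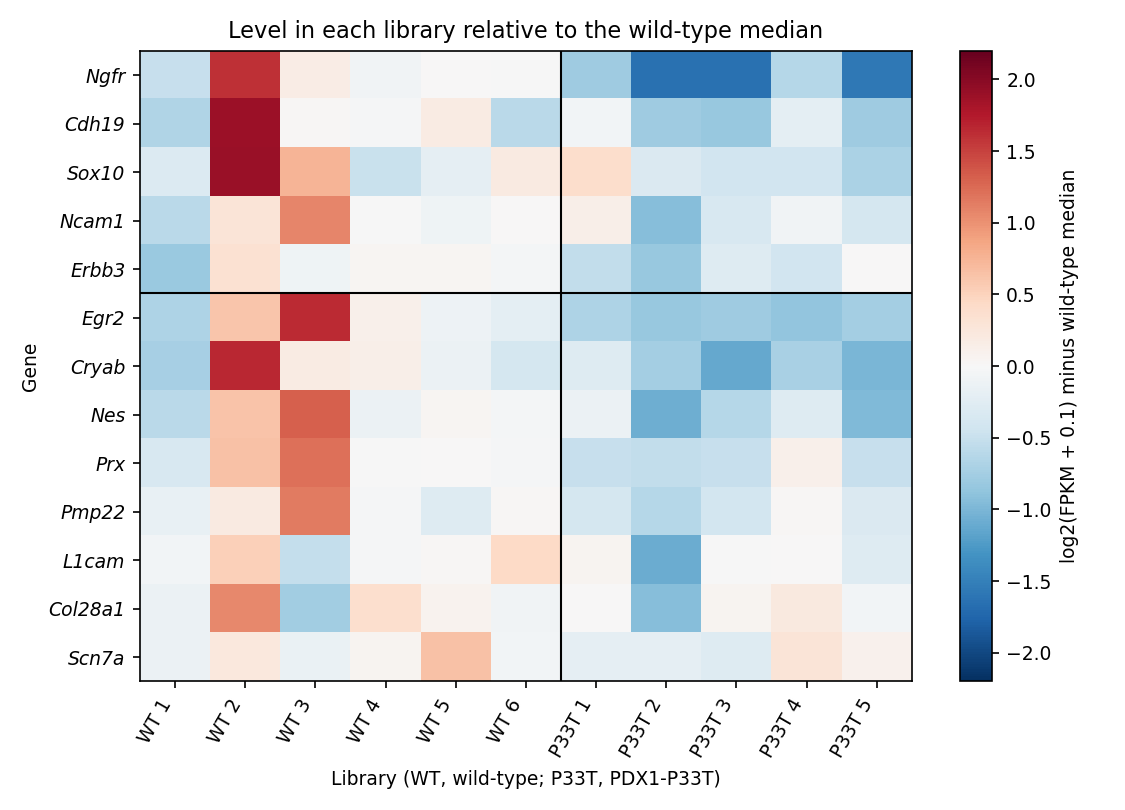
Colour gives log2(FPKM + 0.1) minus the wild-type median for the 5 markers (above the line) and 8 other Schwann cell genes in each of the 11 libraries, WT for wild-type and P33T for PDX1-P33T. Wild-type replicate 2 is high for Ngfr, Cdh19, Sox10 and Cryab, wild-type replicate 3 for Egr2, Nes, Prx, Pmp22 and Ncam1, and the darkest blue cells of the plot are those of Ngfr in PDX1-P33T replicates 2, 3 and 5.

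Among the partners of Ngfr in neurotrophin signalling no gene was called. Of 26 genes of that pathway 24 were in the table and 10 had wild-type values, and none of the 10 passed the unadjusted limits in either direction, beside 6.17% of the 5590 genes lower and 2.77% higher. Maged1 and Bex3, adaptors that bind the intracellular part of the receptor, were abundant at 271 ± 16 and 299 ± 34 FPKM in PDX1-P33T, and their log2 differences were 0.19 and 0.15. Ntrk2, the receptor of brain-derived neurotrophic factor, had −0.09, and Irak1, a kinase downstream of the receptor, 0.19. The co-receptor Sort1 was read in PDX1-P33T only, at 21.3 ± 1.8 FPKM.

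In the neuregulin pathway, to which Erbb3 belongs, 12 of 14 genes were in the table and 4 had wild-type values. Erbb2, the kinase that pairs with Erbb3, was the 1 gene of 4 past the unadjusted limits. It was recognised through the study's gene table, where 334 of 1673 genes were lower by those limits. Its wild-type libraries had 0.115, 0.443, 0.239, 0.352, 0.284 and 0.223 FPKM and its PDX1-P33T libraries 0.186, 0.0809, 0.149, 0.140 and 0.151 FPKM. The groups overlapped through wild-type replicate 1, and the log2 difference was −0.60 (SE 0.22; exact permutation p = 0.0303; adjusted limma p = 0.499). Hbegf, Adam17 and Nrg4 had log2 differences of −0.37, −0.21 and −0.39. The ligand Nrg1 was at 0.0085 ± 0.0080 FPKM in PDX1-P33T, from 17 reads in all.

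Markers of nerve fibres were lower beside Ngfr in some genes and not in others. Of 9 neuron genes with wild-type values, 4 were lower by the unadjusted limits and none was called after adjustment by limma. They were named after their values were seen, and all 4 were recognised through the study's gene table, where 334 of 1673 genes were lower by those limits, beside 6.17% of the 5590. Vip, a neuropeptide of intrapancreatic neurons, had 0.858, 1.08, 1.31, 1.12, 1.11 and 3.25 FPKM in wild-type and 0.558, 0.161, 0.738, 0.310 and 0.614 FPKM in PDX1-P33T. Its groups did not overlap, and the log2 difference of −1.41 (SE 0.35; exact permutation p = 0.0043; adjusted limma p = 0.484) was −1.46 without wild-type replicate 2, in which Vip was not high.

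The other neuron genes past these limits encode parts of the axon's cytoskeleton. Nefl, the light neurofilament chain, did not overlap between groups but rested on 34 wild-type and 5 PDX1-P33T reads. Prph, the peripheral neuron filament peripherin, had a log2 difference of −0.98 and Stmn2, a growth cone regulator of microtubules, −0.64 (exact permutation p = 0.0216 and 0.026). The neuron genes with the most reads, Snap25, Uchl1, Tubb3 and Elavl4, which islet endocrine cells also make, had log2 differences of 0.21, −0.31, −0.14 and 0.16. Over the 9 genes the median was −0.31.

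Levels of other cell types moved with the same libraries. Summed over the 7 fibroblast and mural cell genes with wild-type values, wild-type replicates 2 and 3 had 40.4 and 24.3 FPKM against 6.49 to 9.16 in the other 4, and PDX1-P33T 4.52 to 10.1. The 4 immune genes summed to 57.8 and 55.9 FPKM in those 2 wild-type libraries and to 22.3 to 30.9 in the other 4, and to 17.3 to 27.6 in PDX1-P33T. The 5 endothelial genes summed to 169 FPKM in wild-type replicate 3 and 32.6 to 72.0 in the other 5, and to 25.3 to 59.3 in PDX1-P33T. Wild-type replicate 1, the lowest wild-type library for Ngfr, was also the lowest for each of these 3 sums.

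In PDX1-P33T, replicates 1 and 4, the libraries with the most Ngfr, had the largest sums as well, with 10.1 and 9.55 FPKM of the fibroblast and mural genes against at most 6.31 and with 56.8 and 59.3 FPKM of the endothelial genes against at most 40.2. Among single genes, Col1a1, Col1a2 and Col3a1 stood at 9.43, 8.11 and 14.3 times the median of the other wild-type libraries in wild-type replicate 2, and Sox10 and Cdh19 at 5.84 and 6.50 times. Wild-type replicate 2 was at or above 2 times that median in 3 of the 5 members, 6 of the 7 fibroblast and mural genes and 5.26% of all 5590 genes. The summed islet hormone and granule genes ranged from 232622 to 306300 FPKM in wild-type and from 265051 to 360459 in PDX1-P33T. What part these cell types had in the results for Ngfr was not tested.

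**Figure D5:**
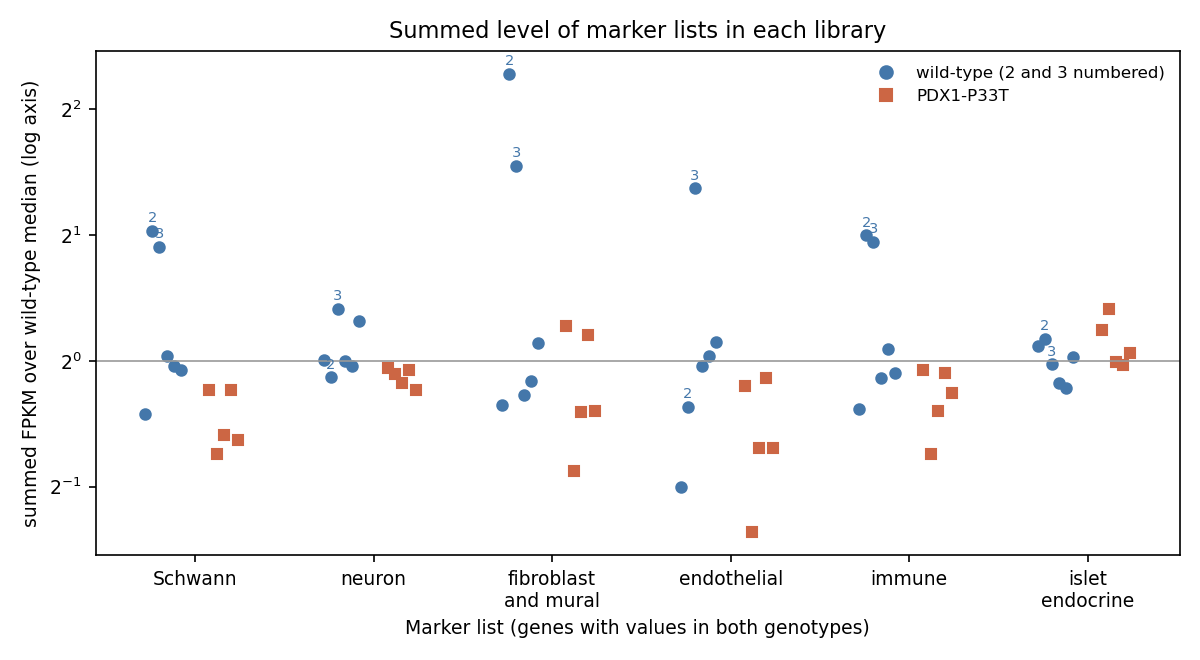
FPKM summed over each marker list (genes with values in both genotypes) in each library, divided by the wild-type median, on a log axis, with wild-type circles (replicates 2 and 3 numbered) and PDX1-P33T squares. Wild-type replicates 2 and 3 are high for the Schwann, fibroblast and mural, and immune lists, replicate 3 alone for the endothelial list, and the islet endocrine list varies least.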

How the data were processed

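Whole-islet RNA had been quantified by the authors with fastp 0.23.1, HISAT2 2.0.5, featureCounts 1.5.0-p3 and DESeq2 1.20.0 on GRCm39, per the labels, and deposited as FPKM for 11 libraries. Strandedness is not settled by the sources used here. Genes without a value in 80% of libraries of a genotype were listed at 0. Columns with the authors' own comparisons were not used.

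The deposited FPKM were whole reads divided by gene length and a scale of each library, which gave back reads and gene length (tolerance 2e-06 reads). Wild-type values, which mostly stood on rows of other genes, were put back by the reads in the part of the study's gene table used here for 1673 genes, or by length and level (at least 100 reads in each genotype, means within 4-fold, no other candidate within 16-fold) for 3052 more. A wider rule (20 reads, 4-fold, 10-fold), added after seeing the data, gave 5590 genes in all. Where that part also named the gene, 403 of 403 main and 496 of 496 wider matches were on the same row. Genes with little difference were put back less often.

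Tests used limma 3.58.1 (trend, robust; R 4.3.3) on log2(FPKM + 0.1), without a block, with Benjamini-Hochberg adjustment over 19329 gene IDs, calls needing an adjusted p no higher than 0.05 with at least a 1.5-fold change, and two-sided exact permutation tests over libraries (462 splits). Genes not put back were counted as unchanged in the adjustment over the gene IDs. The relation to Ngfr used exact permutations, or 100000 within genotype. Depth limits genes with few reads, such as Cdh19, S100b, Nefl and Nrg1. limma and the length recovery were tested on simulated data.

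The members and gene lists were chosen with earlier results of these data known. Named were the members, genes of the Schwann, neurotrophin and neuregulin lists past an unadjusted p of 0.05 and a fold of 1.5 and otherwise up to 4 per list with the most reads, up to 4 per other list with the most reads, and the 10 genes most like Ngfr over 11 and over 6 libraries. Vip, Nefl, Prph and Stmn2, Mbp, Sort1 and Nrg1 were named after their values were seen. A few genes of these lists are not reported here by name.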

Additional observations from a re-analysis of the deposited data

Results flagged for a closer look

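For the 7 members with values above 0 and 6 other Schwann cell genes described by name, 24 groups, each 1 gene in 1 genotype, were searched for a library whose gap to its nearest neighbour exceeded the Dixon limit for the group size. Chance gives such a flag in about 1 of 20 groups of independent, normally distributed values. The groups here share their libraries and partly rest on few reads, so that rate is no measure for them. There were 8 flags, 4 of them on wild-type replicate 2, which stood at 3.66 FPKM of Ngfr, 0.655 FPKM of Cdh19, 1.26 FPKM of Sox10 and 13.9 FPKM of Cryab. Wild-type replicate 3 was flagged for Egr2 at 1.22 FPKM and Pmp22 at 6.38 FPKM. Among the PDX1-P33T libraries, replicate 1 was flagged for Sox10 at 0.378 FPKM and replicate 4 for Prx at 0.165 FPKM. The same 2 wild-type libraries had the highest sums of fibroblast and mural and of immune genes, and their part in these values was not tested.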

How the results depend on the processing

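Of 1124 alternative values for the log2 fold changes of 50 genes, 1119 kept direction and side of the threshold, no member among the exceptions. The 5 that reversed were Col3a1 at 0.025 without wild-type replicate 2 (range over single libraries left out −0.81 to 0.025) and, without replicates 2 and 3, Col1a1 at 0.17, Col3a1 at 0.33, Col1a2 at 0.15 and Krt7 at −0.0024; the cause was not tested. Ngfr ranged from −1.64 (pseudocount 0.01) to −0.73 (pseudocount 1) and from −1.61 to −1.17 with 1 library left out, and was called under none of them, with adjusted limma p from 0.150 to 1.0. Whether the replicate numbers pair the samples cannot be settled here. Deviations of same-numbered libraries correlated at −0.55 to 0.08 by titles and −0.53 to 0.19 by library names. A replicate block gave Ngfr −1.50 by titles and −1.46 by library names, both with an adjusted limma p of 1.0, and changed no call of a member. Counts of calls, 2 lower and 2 higher over all genes and 1 and 2 over those recognised through the study's gene table, were small throughout. The block by titles gave 1 lower over all genes and 0 higher in both sets, and the block by library names 1 higher in both. There was 1 higher in both sets with a pseudocount of 0.01, with a mean FPKM of at least 1, and without wild-type replicates 2 and 3, and 0 higher in both under a limit of 1.5 on the absolute log2 difference. Over the latter, a pseudocount of 1 gave 1 higher and depth-scaled reads in place of FPKM gave 2 lower and 1 higher. The 8-fold rule gave 4 higher over all genes and 2 lower over the latter. With 1 library left out, lower calls ranged from 2 to 5 and higher from 1 to 3 over all genes, and from 1 to 4 and 1 to 3 over the latter. Of 70 alternative values of the centred r over 14 genes, 59 kept their side of the threshold, 6 lost it and 5 gained it. The centred r of Cdh19 with Ngfr lost its call at 0.81 without wild-type replicate 2 and at 0.82 without the 2 farthest libraries. Cdh19 also lost it at 0.80 without wild-type replicates 2 and 3. Cryab lost its call in the same settings, at 0.70, 0.83 and 0.67. Sox10 passed at 0.92 with a pseudocount of 1, and Prx at 0.76 without wild-type replicates 2 and 3. Ncam1, Nes and Prx passed at a Spearman rho of 0.74, 0.83 and 0.68. The genotype difference in the log2 ratio of Ngfr, given without a test, was −0.31 for Cdh19 with a pseudocount of 0.01 and −0.33 for Ncam1 with a pseudocount of 1, against −0.78 and −1.02. The wider rule, the ratios and the fits without wild-type replicates 2 and 3 were chosen after seeing the data. Depth limits Cdh19 and S100b, which had 26 and 20 PDX1-P33T reads.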
